A study of Mus musculus with 1152 samples.

Results

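The genes described are 10 members of the Wnt signalling system: the ligands Wnt2, Wnt5a, Wnt7a and Wnt7b, the receptor Fzd9, the extracellular inhibitors Frzb, Sfrp4 and Dkk3, and Axin2 and Lef1, which are widely used as readouts of the canonical pathway. They were chosen by name, with earlier results of these data known, and all 10 were among the 46517 genes of the count table. Their RNA was measured in wells that each received a sorted fluorescent cell from the brain of adult C57BL/6 mice, by SMART-seq2, which copies and amplifies whole transcripts of the cell in each well. Cells came from male and female mice of the lines Pdgfra-H2BGFP, in which a nuclear green fluorescent protein follows the Pdgfra gene, and Tagl-CREERT2;Ai14, in which a tamoxifen-dependent recombinase under the promoter written Tagl in the labels switches on a red fluorescent protein. The tissue was enriched for vascular fragments with beads against the endothelial protein CD31, so the wells hold reporter-positive cells of that preparation and not a census of the brain. No treatment is given. The labels tie no well to a line, animal or plate, and all wells were therefore treated as 1 sample. Wells are not replicates, no test or p-value was made from them, and every comparison below lacks a replicate check.

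Wnt proteins are secreted, lipid-modified signals. Wls carries them to the cell surface, Frizzled receptors such as Fzd9 and the co-receptors Lrp5 and Lrp6 receive them, and in the canonical branch beta-catenin, made from Ctnnb1, then enters the nucleus and acts with transcription factors of the TCF/LEF family. Frizzled-related proteins such as Frzb and Sfrp4 bind Wnt ligands outside the cell, and Axin2 is both a target and a brake, because Axin proteins help destroy beta-catenin. In the brain, Wnt7a and Wnt7b act on endothelial cells through the receptor complex of Reck and Adgra2 and are needed for brain vessels and their barrier. In the oligodendrocyte lineage, which runs from oligodendrocyte precursor cells (OPC) through committed precursors (COP) to myelin-forming mature oligodendrocytes, Wnt signalling is known to affect the timing of differentiation.

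Of the 1152 wells, 857 had at least 50000 reads. The well names divide them into 3 sets of 384, called 600s_182s, 613s and 1025s_182s, and values are given for each set as the only available view of spread. Wells were assigned to a class by lists of marker genes that hold none of the 10 members. A lineage was present where at least 3 of its markers reached 100 CPM (counts per 1000000 reads of the well), and the well took the present class with the highest mean log2(CPM + 1). This gave 232 OPC, 71 COP, 377 mature oligodendrocyte, 77 fibroblast and 57 vessel wells, 814 in all. Of the rest, 34 wells fell in classes of under 20 wells, which were only counted, and 9 in none. All 57 vessel wells were assigned through endothelial or mural markers, 35 with endothelial markers only and 22 with 3 mural markers as well. Median depths were 262342 reads in OPC, 469801 in COP, 258680 in mature oligodendrocyte, 260495 in fibroblast and 387896 in vessel wells. The sets were unevenly filled: 600s_182s held 181 of the OPC and 60 of the COP wells but 5 vessel wells, and 1025s_182s held 1 COP well.

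The summed level of each marker list was highest in the class it names, with the endothelial and mural lists highest in vessel wells. Of the single mural markers, however, Abcc9 (105 against 60.9 CPM) and Kcnj8 (82.0 against 42.6 CPM) were higher in fibroblast than in vessel wells. Pdgfra stood at 1243 CPM in OPC and 470 in fibroblast wells, Enpp6 at 1624 in COP, Mog at 1958 in mature oligodendrocyte, Col1a1 at 2457 in fibroblast and Cldn5 at 2484 in vessel wells. Many wells nevertheless carried markers of a further lineage: 39 of the 77 fibroblast wells had 3 oligodendrocyte lineage markers, and of the 57 vessel wells 26 had 3 microglia, 21 oligodendrocyte lineage and 17 fibroblast markers. Among the 377 mature oligodendrocyte wells, 44 had 3 astrocyte, 35 neuron and 33 fibroblast markers. Wells with markers of a single lineage numbered 192, 66, 267, 37 and 16 in OPC, COP, mature oligodendrocyte, fibroblast and vessel wells. The summed level of the 7 fibroblast markers was 1079 CPM in vessel wells (643 to 3396 over the sets) against 10792 CPM in fibroblast wells, and none of these markers was at 0 in vessel wells. Single-lineage values are given beside the results these wells touch.

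By level, most members had a class of their own. Wnt2, Wnt5a and Dkk3 were highest in fibroblast wells. Wnt7a, Wnt7b and Fzd9 were highest in OPC wells and lower in COP wells. Axin2 ranged from 9.38 CPM in mature oligodendrocyte to 38.2 CPM in COP wells. Lef1 was at 284 CPM in vessel wells and at 8.30 CPM or less in the other 4 classes.

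**Figure D1:**
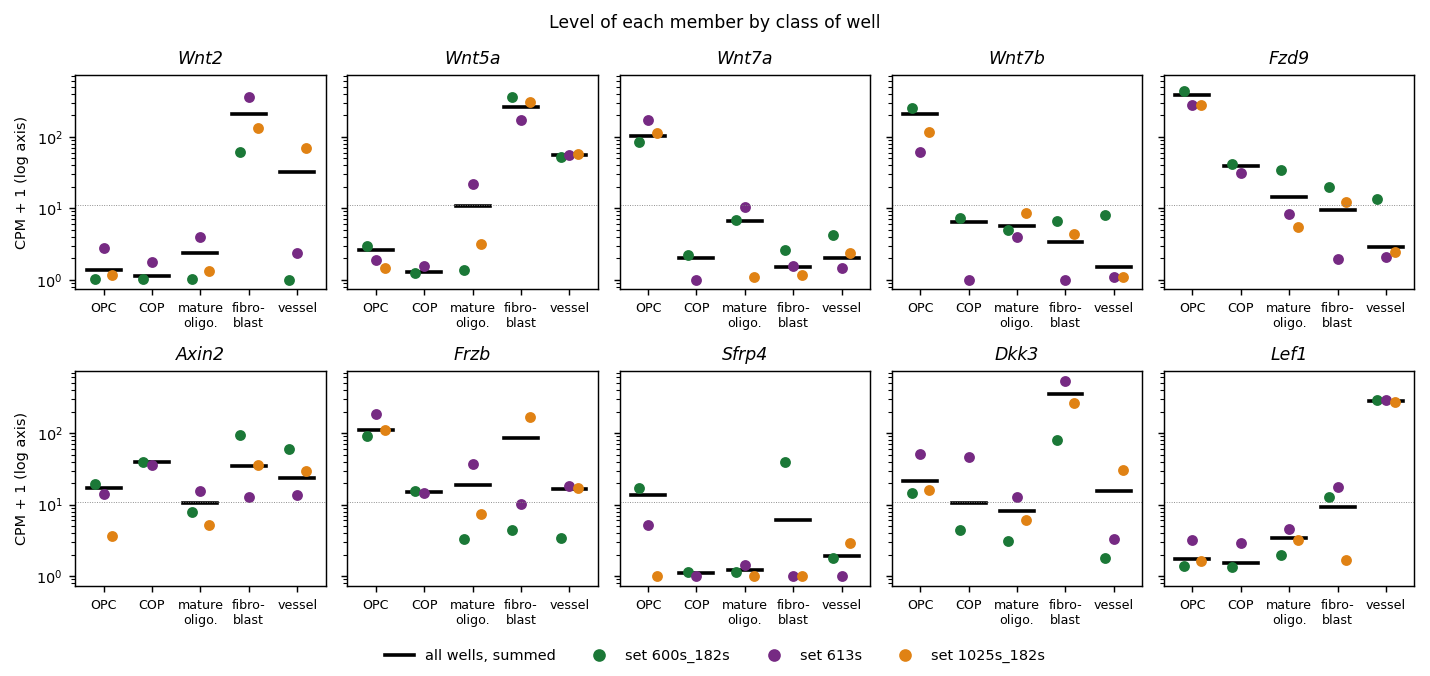
Level of each of the 10 members (vertical log axis, CPM + 1) in OPC, COP, mature oligodendrocyte, fibroblast and vessel wells. Black bars are all wells of a class summed, points are the sets with at least 5 wells of the class, and the dotted line is the 10 CPM minimum; the Wnt5a, Wnt7a, Wnt7b, Fzd9, Dkk3 and Lef1 points of the top class lie above those of the next class in level.

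Classes were compared by the log2 ratio of their summed CPM, with 1 CPM added to each side, which understates the difference of low genes. A call of higher or lower needed a difference of 2-fold or more and 10 CPM or more in the upper class. It is a statement of size, without a test. Genes with the minimum level in neither class were not eligible. In fibroblast against OPC wells 4 of 9 eligible members were called higher, where 20.8% of all eligible genes were, and 4 lower, where 29.2% were. In vessel against fibroblast wells 1 of 6 eligible members was called higher (22.1% of all eligible genes) and 4 lower (21.2%). In COP against OPC wells 1 of 7 was called higher (10.3%) and 6 lower (23.2%). In mature oligodendrocyte against COP wells 0 of 3 were called higher (15.7%) and 2 lower (18.8%). Eligibility through the class where a member is high favours a call but does not force it, and Frzb in fibroblast against OPC wells was eligible and not called. These counts therefore describe the members and are not set against the shares of all genes. The comparisons share wells, since the fibroblast, OPC and COP wells each enter a pair of them. Scaling by another method moved the median over all genes by up to 0.22 on the log2 scale and the calls over all genes with it: higher genes were 30.7% of those called in COP against OPC wells but 41.8% after median-of-ratios scaling, and 45.5% in mature oligodendrocyte against COP wells but 55.9% after TMM scaling. No member changed direction under either scaling.

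**Figure D2:**
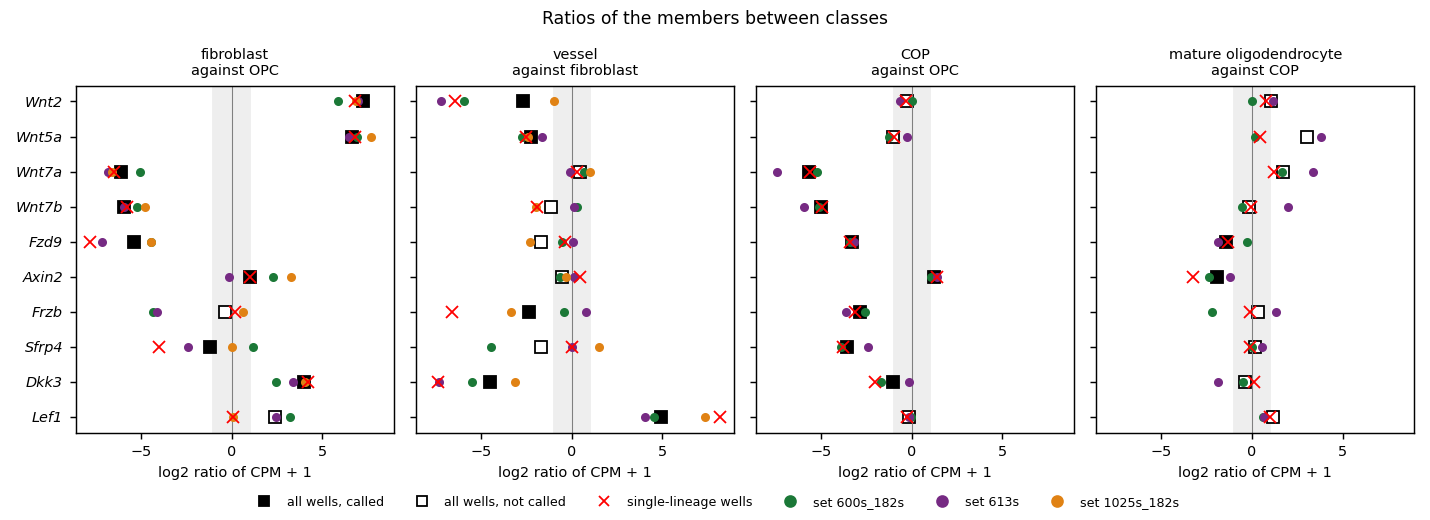
Log2 ratio of CPM + 1 (horizontal axis) of the 10 members in the 4 comparisons. Squares are all wells, filled where called and open where not, red crosses are single-lineage wells, and coloured points are the sets that hold at least 5 wells of both classes; the grey band marks ratios under 2-fold. The Frzb points of fibroblast against OPC wells lie on both sides of 0.

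Wnt2, a ligand gene at chr6:17988940-18030585 on the minus strand of GRCm38, was a gene of few but strongly positive fibroblast wells. Its level in fibroblast wells was 209 CPM (exact Poisson 95% interval 203 to 215, for counting error only), with 60.1, 354 and 132 CPM in sets 600s_182s, 613s and 1025s_182s. Of the 77 fibroblast wells 15 had at least 100 CPM, the highest 1560.3 CPM, and the median well had 0. All 190 reads of set 600s_182s came from 1 well. With each well thinned to 50000 reads, 23.4% of fibroblast wells (exact Clopper-Pearson 95% interval 14.5 to 34.4) held a read, against 1.29% (0.267 to 3.73) of OPC wells. OPC, COP and mature oligodendrocyte wells had 0.37, 0.14 and 1.38 CPM. The fibroblast to OPC log2 ratio was 7.26, with 5.88, 6.99 and 6.85 within the sets, and all sets were on the same side.

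Vessel wells showed 31.4 CPM of Wnt2, but the sets did not resemble each other, at 0, 1.36 and 67.9 CPM in the order above, and 1 well held 61.4% of the reads of mixed vessel wells. The 0 reads of set 600s_182s allow up to 2.37 CPM (3 reads). The 17 vessel wells with 3 fibroblast markers had 106 CPM and the 40 without them 0.69 CPM. The single-lineage vessel wells had 0.61 CPM. Wnt2 was thus called lower in vessel than in fibroblast wells (−2.70), but the ratio was −0.95 in set 1025s_182s alone and −0.94 without set 613s, both short of the call, and −6.46 in single-lineage wells.

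Wnt5a encodes a ligand best known for branches of the pathway that do not use beta-catenin, and lies at chr14:28504750-28527448 on the plus strand. It was the broader of the fibroblast ligands. Its level was 261 CPM in fibroblast wells (255 to 268), with 354, 170 and 310 CPM in the sets. Of the 77 wells 55 had at least 10 CPM and 34 at least 100 CPM, the median well had 78.5 CPM and the highest 2357 CPM. Every set had its median well above 0, at 37.8, 115 and 78.4 CPM. Thinned wells held a read in 67.5% of cases (55.9 to 77.8) against 6.03% (3.34 to 9.92) of OPC wells. The fibroblast to OPC ratio was 6.63, with 6.90, 6.50 and 7.72 within the sets and 6.79 in single-lineage wells.

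Vessel wells formed a middle level of Wnt5a that was alike in the sets, at 51.4, 53.6 and 56.4 CPM, and 54.8 CPM together. Each of these lay below every fibroblast set and above every mature oligodendrocyte set. The vessel to fibroblast ratio was −2.23, and −2.51 in single-lineage wells. The 35 vessel wells with endothelial markers only had 83.5 CPM and the 22 with mural markers 14.9 CPM. Unlike Wnt2, Wnt5a remained at 41.4 CPM in the 40 vessel wells without 3 fibroblast markers, against 87.1 CPM in the 17 with them. The 9.60 CPM of mature oligodendrocyte wells came from wells that also carried another lineage: single-lineage wells had 0.72 CPM and the others 47.2 CPM, of which 1 well gave 49.2% of the reads. Wnt5a shares 358 exon bases with the antisense gene Gm2670, which had at most 0.25 CPM in any class.

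At 10 CPM, 12 of the 77 fibroblast wells held both Wnt2 and Wnt5a, 4 Wnt2 alone, 43 Wnt5a alone and 18 neither. Wnt5a was thus in 12 of the 16 wells with Wnt2 and in 55 of all 77, and no separation of the ligands is read from this. Per length, in reads per kilobase of merged exons per 1000000 reads (RPKM), the level of Wnt2 in fibroblast wells was 92.7 and that of Wnt5a 33.4 with all wells summed. The order turned in set 600s_182s, where Wnt2 had 26.7 RPKM, all from 1 well, and Wnt5a 45.2.

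**Figure D3:**
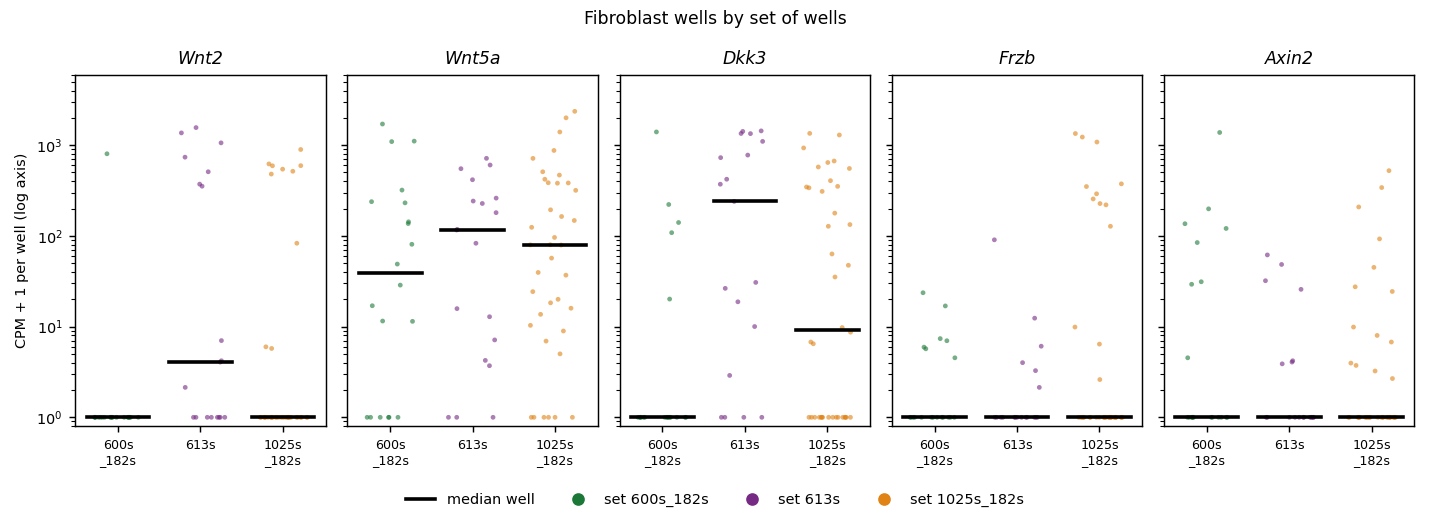
Level of Wnt2, Wnt5a, Dkk3, Frzb and Axin2 (vertical log axis, CPM + 1) in each of the 77 fibroblast wells, by set of wells. Points are wells and black bars the median well; wells without a read lie at 1, and all 10 wells of Frzb at 100 CPM or more are in set 1025s_182s.

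Wnt7a and Wnt7b encode closely related ligands, at chr6:91363981-91411363 and chr15:85535437-85582473, both on the minus strand. Both were highest in OPC wells. Wnt7a stood at 103 CPM (100 to 105), with 84.1, 172 and 112 CPM in sets 600s_182s, 613s and 1025s_182s, and Wnt7b at 204 CPM (201 to 207), with 251, 60.4 and 117 CPM. For both genes every OPC set lay above every set of each other class. The order of the pair differed between sets. Per length, Wnt7b was above Wnt7a in 600s_182s (51.2 against 26.5 RPKM), and Wnt7a was above Wnt7b in 613s (54.3 against 12.3) and in 1025s_182s (35.2 against 23.8).

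Only part of the OPC wells held either ligand. For Wnt7a the median OPC well had 0 CPM, the highest 1313 CPM, and 43 of 232 had at least 100 CPM. For Wnt7b the median was 8.90 CPM, the highest 1901 CPM, and 70 wells had at least 100 CPM. At 10 CPM, 28 wells held both genes, 32 Wnt7a alone, 83 Wnt7b alone and 89 neither, and 24 of the 28 were in set 600s_182s. After thinning, 29.3% (23.5 to 35.6) of OPC wells held a read of Wnt7a and 47.8% (41.3 to 54.5) one of Wnt7b. In fibroblast wells, at nearly the same median depth, these shares were 2.60% (0.316 to 9.07) and 13.0% (6.41 to 22.6).

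In COP wells Wnt7a was at 1.04 CPM and Wnt7b at 5.35 CPM. The COP to OPC ratios were −5.67 and −5.01, the same in direction in both sets that could be compared (−5.26 and −7.44 for Wnt7a, −5.11 and −5.94 for Wnt7b in 600s_182s and 613s) and nearly as large in single-lineage wells (−5.61 and −4.98). No COP well reached 100 CPM of Wnt7a and 1 of 71 did for Wnt7b, and that well gave 46.9% of the Wnt7b reads of set 600s_182s. The 10 COP wells of set 613s held 0 reads of either gene, which allows up to 0.562 CPM (3 reads). Mature oligodendrocyte wells had 5.59 CPM of Wnt7a and 4.61 CPM of Wnt7b, neither eligible against COP. In set 613s 1 mature oligodendrocyte well held 88.3% of the Wnt7b reads, and in 1025s_182s 1 well held 97.8%.

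A low level of these genes ran through set 600s_182s. There, Wnt7b had reads in 49 of 60 COP, 55 of 79 mature oligodendrocyte, 13 of 20 fibroblast and all 5 vessel wells, at well medians of 3.01, 3.01, 4.88 and 10.3 CPM, while in 613s it had reads in 0 of 10, 11 of 175, 0 of 19 and 1 of 22 wells of these classes. Fzd9 did the same, with reads in 20 of 20 fibroblast and 5 of 5 vessel wells of 600s_182s. Set 600s_182s is also the set in which most wells were OPC. Levels and shares at this height are not read as a trait of a class. Background of the set and low expression were not told apart, and the source was not tested. OPC wells of the set exceeded this low level in height, with 61 of 181 at 100 CPM or more of Wnt7b, against 1 of 60 COP, 0 of 79 mature oligodendrocyte, 0 of 20 fibroblast and 0 of 5 vessel wells.

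Wnt7b shares 324 exon bases with the antisense gene AU022754, which had 3.43 CPM in OPC wells and less elsewhere.

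Fzd9, a Frizzled receptor gene of 1 exon at chr5:135248938-135251230 on the minus strand, was the most widely detected member of OPC wells. Its level was 388 CPM (384 to 393), with 430, 278 and 273 CPM in the sets. Of 232 OPC wells 172 had at least 10 CPM, 109 at least 100 CPM and 29 at least 1000 CPM, with a median well of 40.1 CPM and a highest of 2226 CPM. Thinned wells held a read in 72.0% (65.7 to 77.7) of OPC, 33.8% (23.0 to 46.0) of COP, 17.2% (13.6 to 21.4) of mature oligodendrocyte, 19.5% (11.3 to 30.1) of fibroblast and 14.0% (6.26 to 25.8) of vessel wells. Within set 600s_182s alone they were 79.6%, 36.7%, 35.4%, 60.0% and 80.0%. The shares outside OPC wells include the low level described above and are not read as a trait of those classes. What set OPC wells apart in that set was height: 91 of 181 had at least 100 CPM of Fzd9, against 4 of 60 COP, 7 of 79 mature oligodendrocyte, 0 of 20 fibroblast and 0 of 5 vessel wells.

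The level of Fzd9 in COP wells was 38.5 CPM, with 40.1 CPM in set 600s_182s and 29.6 CPM in 613s, a log2 ratio to OPC of −3.30 (−3.39 and −3.19 within these sets). In 613s 1 of the 10 COP wells gave 96.2% of the reads. Mature oligodendrocyte wells had 13.4 CPM, called lower than COP (−1.46), but within set 600s_182s alone the ratio was −0.27 and no call. Fibroblast wells had 8.30 CPM, or 0.803 CPM in single-lineage wells, and their ratio to OPC was −5.39. At 10 CPM, 88 OPC wells held both Wnt7b and Fzd9, 23 Wnt7b alone, 84 Fzd9 alone and 37 neither. Of the 88, 84 were in set 600s_182s, where both genes have the low level described above, and 4 were among the 32 OPC wells of 613s. There were 0 among the 19 of 1025s_182s, of which 4 held Wnt7b alone and 6 Fzd9 alone.

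**Figure D4:**
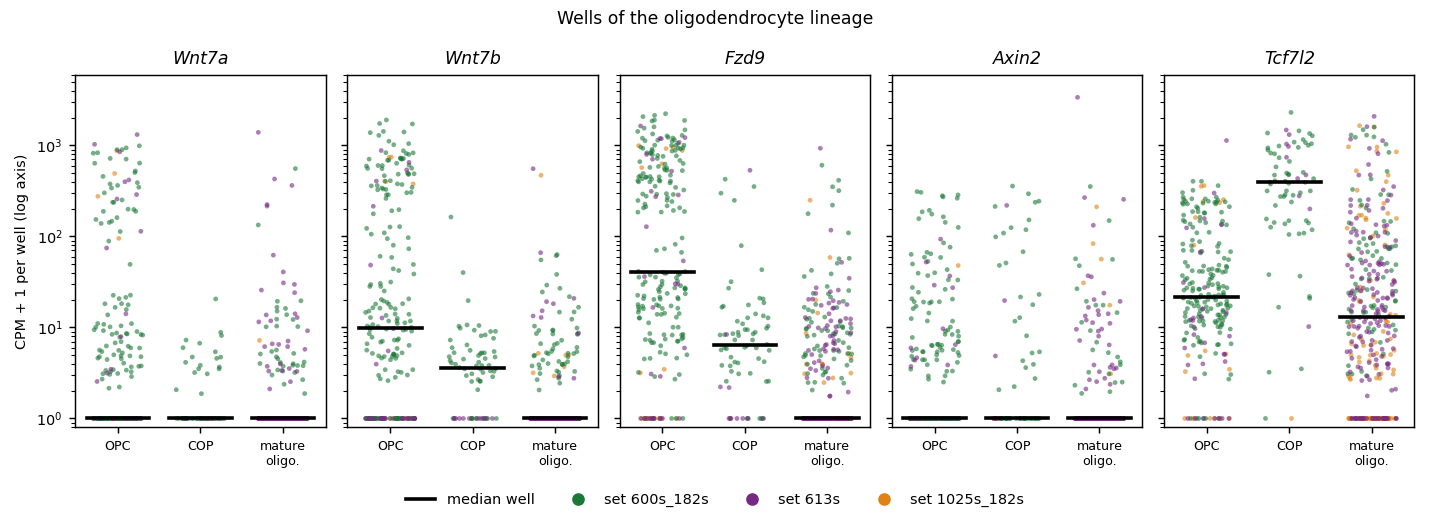
Level of Wnt7a, Wnt7b, Fzd9, Axin2 and the TCF/LEF factor gene Tcf7l2 (vertical log axis, CPM + 1) in each OPC, COP and mature oligodendrocyte well, coloured by set. Points are wells, black bars the median well and wells without a read lie at 1; OPC wells of Wnt7b and Fzd9 spread from no reads to above 1000 CPM, and 61 of 71 COP wells hold at least 100 CPM of Tcf7l2.

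Frzb encodes a secreted Frizzled-related inhibitor, at chr2:80411970-80447625 on the minus strand. It was high in OPC wells in every set, at 91.2, 181 and 108 CPM, and 109 CPM with all wells summed (107 to 112). As with the ligands, only part of the wells carried it: the median OPC well had 2.11 CPM, 40 of 232 had at least 100 CPM and the highest had 1778 CPM. Of the 64 OPC wells with 10 CPM of Frzb, 31 also held Wnt7b, 29 of them in set 600s_182s, and 18 held Wnt7a at that level. COP wells had 14.1 CPM, a ratio of −2.87 (−2.60 and −3.65 in 600s_182s and 613s), and −3.12 in single-lineage wells.

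In fibroblast wells the level of Frzb depended on the set, at 3.48, 9.32 and 170 CPM, and 85.3 CPM together. All 10 wells with at least 100 CPM were among the 38 of set 1025s_182s, the highest at 1341 CPM, and the median well of each set had 0. Single-lineage fibroblast wells had 138 CPM and the other 40 had 15.5 CPM, but 31 of the 37 single-lineage wells are of that set, so set and mixing cannot be told apart here. The fibroblast to OPC ratio was −0.35 with all sets, not called, with −4.36, −4.14 and 0.64 in the sets. Vessel wells had 15.7 CPM, and 2 wells reached 10 CPM. Both had 3 fibroblast markers, and the 17 wells with these markers had 52.1 CPM against 0.627 CPM in the other 40. The vessel to fibroblast ratio of −2.37 went the other way without set 1025s_182s, at 0.90.

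Sfrp4, at chr13:19623104-19632994 on the plus strand, belongs to the same inhibitor family and was the rarest member. OPC wells had 12.5 CPM (11.7 to 13.3), with 16.0, 4.26 and 0 CPM in the sets, the 0 allowing up to 0.474 CPM. Only 12 of 232 OPC wells had at least 10 CPM and 6 at least 100 CPM, all 6 in set 600s_182s, the highest at 736 CPM. All 120 reads of the fibroblast class came from 1 well of 600s_182s, at 423 CPM, and that well carried markers of a further lineage. The 37 single-lineage fibroblast wells had 0 reads. The fibroblast to OPC ratio of −1.17 depended on that well and that set: it was −3.98 in single-lineage wells and 1.19 within set 600s_182s, and it was called lower in 8 of 16 other settings and higher in 1. COP wells had 0.109 CPM, a ratio of −3.60 that was called in 13 of 15 other settings.

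Dkk3, at chr7:112116017-112159057 on the minus strand, encodes a secreted protein of the Dickkopf family whose effect on Wnt signalling is less settled than that of its relatives. With all fibroblast wells summed it was the highest member per length, at 103 RPKM, but not in set 600s_182s, where it had 23.7 RPKM and Wnt5a 45.2. Its level there was 347 CPM (340 to 354), with 79.7, 540 and 263 CPM in the sets. Of the 77 wells 36 had at least 10 CPM and 29 at least 100 CPM, with a median well of 7.68 CPM and a highest of 1435 CPM. In set 600s_182s 1 well held 73.4% of the reads, and 5 of the 20 wells had any, against 13 of 19 wells at 10 CPM in 613s. Every fibroblast set still lay above every set of the other classes, and the ratio to OPC was 4.02 (2.46, 3.40 and 4.03 in the sets, and 4.23 in single-lineage wells).

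OPC wells had 20.5 CPM of Dkk3 from few wells, 9 of 232 at 100 CPM or more. COP wells had 9.47 CPM, and the small call as lower than OPC (−1.04) was lost under TMM scaling (−0.95) and turned to 0.18 without set 600s_182s. Vessel wells had 14.4 CPM, or 1.02 CPM in single-lineage wells, and were called lower than fibroblast wells (−4.50, with −5.49, −7.33 and −3.13 in the sets). Vessel wells with 3 fibroblast markers had 42.0 CPM and those without 3.01 CPM. Among fibroblast wells, 25 held both Dkk3 and Wnt5a at 10 CPM, 11 Dkk3 without Wnt5a and 30 Wnt5a without Dkk3. Both Dkk3 and Wnt2 were in 12 wells, Dkk3 without Wnt2 in 24 and Wnt2 without Dkk3 in 4. In set 613s 7 wells held both and 0 Wnt2 without Dkk3, but in 1025s_182s these were 4 and 4. No link of the genes is read from this.

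Axin2, at chr11:108920349-108950783 on the plus strand, is a feedback inhibitor and a common readout of canonical Wnt signalling. Its highest summed level was in COP wells, 38.2 CPM (36.2 to 40.2), and it was alike in the sets, at 38.8 CPM in 600s_182s and 34.9 CPM in 613s. That value for 613s rests on 1 of 10 wells, which held 98.9% of its reads. Of the 71 COP wells 20 had at least 10 CPM and 10 at least 100 CPM, and the median well had 0. OPC wells had 16.1 CPM, with 18.5, 12.9 and 2.68 CPM in the sets, and 50 of 232 had at least 10 CPM. The COP to OPC ratio was 1.20 (1.03 and 1.36 in 600s_182s and 613s, 1.36 in single-lineage wells), but 0.83 and no call as a mean over wells. Thinned shares were 28.2% (18.1 to 40.1) in COP and 21.1% (16.1 to 26.9) in OPC wells, and these intervals overlap.

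Mature oligodendrocyte wells had 9.38 CPM of Axin2, with 6.80, 14.7 and 4.13 CPM in the sets, and were called lower than COP wells (−1.92, and −2.35 and −1.19 in 600s_182s and 613s). In 613s 1 well at 3368 CPM gave 81.8% of the reads, and single-lineage wells had 3.40 CPM and a ratio of −3.23. Axin2 in fibroblast wells was 33.6 CPM, with 93.0, 11.7 and 35.1 CPM in the sets, and 1 well held 70.7% of the reads of 600s_182s. The call as higher than OPC (1.02) is at the edge of the rule: it was lost in single-lineage wells (1.00 after rounding up), 0.86 without set 1025s_182s and −0.14 in set 613s alone. Vessel wells had 22.5 CPM, with 59.4, 12.8 and 28.5 CPM in the sets, and 43.1 CPM in single-lineage wells. The set ranges of Axin2 overlapped between every class and the next in level, so no full order of its classes holds over the sets. Both COP sets, at 38.8 and 34.9 CPM, lay above every OPC and every mature oligodendrocyte set. The 34.9 CPM rests on 1 well, as given above. Axin2 shares 209 exon bases with the antisense gene Gm11670, which had 4.20 CPM in COP wells and 2.00 CPM or less elsewhere.

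Lef1, at chr3:131110471-131224356 on the plus strand, encodes a TCF/LEF factor and is also a target of the pathway in endothelial cells. Vessel wells had 284 CPM (277 to 291), with 291, 290 and 275 CPM in sets 600s_182s, 613s and 1025s_182s. The first value rests on 1 of 5 wells, which held 95.9% of its reads, while in 613s 20 of 22 and in 1025s_182s 22 of 30 wells had at least 10 CPM. The median vessel well had 151 CPM and the highest 1367 CPM. Thinned vessel wells held a read in 71.9% of cases (58.5 to 83.0) against 6.49% (2.14 to 14.5) of fibroblast wells, with median depths of 387896 and 260495 reads before thinning.

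The vessel to fibroblast ratio of Lef1 was 4.94, and 4.52, 4.06 and 7.35 within the sets. It was larger in single-lineage wells, at 8.16, where vessel wells had 516 CPM and fibroblast wells 0.803 CPM. The fibroblast level of 8.30 CPM moved with vessel markers: the 5 fibroblast wells with 3 of them had 80.4 CPM and the other 72 had 2.48 CPM. Vessel wells with endothelial markers only had 329 CPM, and those with mural markers as well 220 CPM. OPC, COP and mature oligodendrocyte wells had 0.74, 0.55 and 2.45 CPM. At 10 CPM, 14 of 57 vessel wells held both Lef1 and Axin2, 31 Lef1 alone, 5 Axin2 alone and 7 neither. Lef1 shares 1208 exon bases with the antisense gene Gm43352, which was not analysed here.

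For the targets, the bases just upstream of annotated starts were read from RefSeq (GRCm38.p6) and searched for CTTTGA on both strands. CTTTGA is 1 form of the core that TCF/LEF factors bind, and other forms were not searched. On the opposite strand CTTTGA reads TCAAAG. They are shown because Axin2 and Lef1 are the members known as targets, and Lef1 starts from more than 1 place. Windows of 250 bases before a start, free of exon bases, are printed 5′ to 3′ on the plus strand, with matches in capitals: the Axin2 window is chr11:108920099-108920348, the first Lef1 window shown chr3:131112541-131112790, and the second chr3:131156044-131156293. Both Lef1 windows lie before starts inside the gene as GENCODE draws it, since those before its outermost starts held exon bases.
Axin2: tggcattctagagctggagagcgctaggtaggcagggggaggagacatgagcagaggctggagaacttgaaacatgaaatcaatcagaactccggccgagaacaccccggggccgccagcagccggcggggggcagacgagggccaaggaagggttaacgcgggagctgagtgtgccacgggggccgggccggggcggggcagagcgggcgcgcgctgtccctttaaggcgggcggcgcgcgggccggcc
Lef1 first window: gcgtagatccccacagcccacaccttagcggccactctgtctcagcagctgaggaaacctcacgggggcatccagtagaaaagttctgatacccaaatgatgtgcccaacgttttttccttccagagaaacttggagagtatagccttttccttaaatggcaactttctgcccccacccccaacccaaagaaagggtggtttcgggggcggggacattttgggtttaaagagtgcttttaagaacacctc
Lef1 second window: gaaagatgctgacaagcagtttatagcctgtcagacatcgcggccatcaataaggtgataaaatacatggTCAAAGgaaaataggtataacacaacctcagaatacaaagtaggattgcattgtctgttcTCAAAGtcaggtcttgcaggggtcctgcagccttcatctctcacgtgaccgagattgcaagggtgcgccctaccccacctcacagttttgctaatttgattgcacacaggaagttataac

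The second Lef1 window holds 2 matches, whose first bases lie 180 and 120 bases before the start, and the other 2 windows printed hold none. Of 32851 windows of 250 bases before starts of all genes, 13.8% hold this form of the core. Windows were found for 6 of the 10 members (9 windows, 2 with a match). The other one with a match is the Frzb window, in bases not printed here, 95 bases before the start. A match is a description of these letters only, and the counts per gene do not separate the starts of Lef1.

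Between genes, levels can be compared per length. With all OPC wells summed the order in RPKM was Fzd9 at 169, Wnt7b at 41.7, Frzb at 33.7, Wnt7a at 32.4, Dkk3 at 6.11, Sfrp4 at 2.99 and Axin2 at 2.92. Fzd9 led in each set (187, 121 and 119), but Wnt7b was next in 600s_182s only, the set with most OPC wells. In 613s Frzb (56.0) and Wnt7a (54.3) followed Fzd9, with Dkk3 (14.9) and Wnt7b (12.3) below them, and in 1025s_182s it was Wnt7a (35.2), Frzb (33.5) and Wnt7b (23.8).

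In fibroblast wells the summed order was Dkk3 at 103, Wnt2 at 92.7, Wnt5a at 33.4 and Frzb at 26.3 RPKM. Dkk3 and Wnt2 were close in 613s (161 and 157), Dkk3 led in 1025s_182s (78.4, with Wnt2 at 58.6), and Wnt5a led in 600s_182s. In vessel wells Lef1 led in each set (33.1, 33.0 and 31.3 RPKM), with Wnt2 close to it in 1025s_182s (30.1), a value that rests on a few wells. In COP wells Fzd9 at 16.8 and Axin2 at 6.93 RPKM led with all wells summed, but Dkk3 (13.4) was beside Fzd9 (12.9) in 613s. In mature oligodendrocyte wells Fzd9 had 5.83 RPKM, which came from the 14.4 of set 600s_182s, while in 613s Frzb (11.0) was above Fzd9 (3.21), so no order holds over the sets there.

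The other genes of the pathway were taken from 5 lists of 98 genes in all, which also hold the members. Only genes with the minimum level in a class compared are counted, so a list keeps the genes that are high in 1 of the classes, and its median describes those genes alone. Of the ligands, 8 had the minimum level in fibroblast or OPC wells. In fibroblast against OPC wells 5 of these were higher and 3 lower, and their median ratio was 3.60, while that of all genes was −0.22. Of all eligible genes 20.8% were higher and 29.2% lower. The lower ones were Wnt7a, Wnt7b and Ndp (−5.43, 0.292 against 54.9 CPM), which encodes norrin, a ligand of Fzd4 that is not a Wnt. Of 21 receptors and co-receptors 12 were higher and 4 lower (median 1.15), among them Fzd7 (4.94), Fzd2 (4.15) and Ror2, a receptor of Wnt5a (4.62), higher, and Lgr5, a receptor of R-spondins, lower (−4.23). Rspo3, an R-spondin, was higher at 4.36, though not in set 600s_182s (−0.65), and so was the inhibitor gene Sfrp1 at 3.98, with 0.34 and no call in that set. Of 8 eligible inhibitors 4 were higher and 1 lower (median 1.30). Among targets, 4 were higher and 3 lower of 10 (median 0.50), with Bambi at 4.07 and the cyclin gene Ccnd1 at −4.56. Tcf7, a TCF/LEF factor gene, was higher at 4.88, but −0.82 in set 600s_182s. That call rested on set 613s, since fibroblast wells had 0, 131 and 3.75 CPM of Tcf7 in 600s_182s, 613s and 1025s_182s.

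Genes of the receptor complex of Wnt7a and Wnt7b had reads in both vessel and fibroblast wells. Reck stood at 138 CPM in vessel and 109 CPM in fibroblast wells and at 9.59, 4.75 and 7.42 CPM in OPC, COP and mature oligodendrocyte wells. Adgra2 had 41.8 and 69.2 CPM in vessel and fibroblast wells against 8.23, 0.956 and 3.33 CPM. Both were called higher in fibroblast than in OPC wells (3.38 and 2.93, but 0.33 for Reck in set 600s_182s), and neither was called between vessel and fibroblast wells (0.34 and −0.71). For Reck that value stands for sets on both sides, at 3.65, −1.24 and 0.99. Fzd4 had 52.0 CPM in vessel and 29.2 CPM in fibroblast wells (0.81, not called, with 0.44, −0.29 and 1.70 in the sets). Its call as higher in fibroblast than in OPC wells (1.13) rested on set 613s, with −3.40, 3.32 and −0.51 in the sets. Lrp6 had 58.8 and 98.2 CPM in vessel and fibroblast wells (−0.73, not called, with −2.03, −0.39 and −1.20). Ctnnb1, which encodes beta-catenin, had 1078 CPM in vessel and 555 CPM in fibroblast wells (0.96, not called, with 1.63, 0.40 and 1.43). Lrp6 (0.30), Ctnnb1 (0.41) and Tcf7l2 (0.31) were not called between fibroblast and OPC wells either, though Lrp6 was at 1.11 in 613s and 5.35 in 1025s_182s, whereas Wls was higher in fibroblast wells (1.81, with 1.89, 1.81 and 1.26 in the sets).

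In vessel against fibroblast wells, the higher pathway genes besides Lef1 included Notum, a secreted enzyme that inactivates Wnt proteins by removing their lipid (4.82, 29.7 against 0.0834 CPM, and 5.05, 5.15 and 4.29 in the sets), and the receptor gene Fzd6 (2.73, 243 against 35.8 CPM, and 1.99, 2.96 and 2.92). The inhibitor gene Sostdc1 was called higher at 3.87, but it was so in set 613s only (4.39 against −0.40 and −0.99) and stood at −0.06 in single-lineage wells. Lower by 2-fold or more in each set were Ror2 (−5.30), Fzd2 (−4.32) and Shisa2 (−4.00). For Shisa2, however, fibroblast wells were below the minimum of 10 CPM in set 1025s_182s (3.83 CPM) and in single-lineage wells (3.21 CPM). Other calls as lower did not hold in each set: Rspo3 (−4.11) was at 0.44 and Nkd2 (−3.24) at 0.84 in 600s_182s, and Rnf43 (−3.19) was at 1.10 in 600s_182s and 0.78 in 613s. Wnt6 (−3.46) rested on 613s alone (−4.62), with 0 in 600s_182s and −0.23 in 1025s_182s. By list, 1 of 6 eligible ligands was higher and 5 were lower (median −2.46, against 0.07 over all genes), 5 of 11 targets were higher and 3 lower (0.08), and 4 of 10 inhibitors were higher and 5 lower (−0.82). Of all eligible genes 22.1% were higher and 21.2% lower. Wls (−0.46) and Tcf7l2 (−0.58) were not called, but in 600s_182s, with its 5 vessel wells, they were at −2.18 and 1.72. Tcf7l2 went the other way in 613s (−1.14) and in single-lineage wells (−2.10).

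In COP against OPC wells 18 of 44 eligible pathway genes were lower and 4 higher. Of all eligible genes 23.2% were lower and 10.3% higher. The median ratio of the 44 was −0.82, against −0.13 over all genes. The 3 eligible ligands, all eligible through OPC wells, were lower (Wnt7a, Wnt7b and Ndp at −3.06). Of the ligands below the minimum, Wnt3 had 9.53 CPM in COP against 3.92 CPM in OPC wells and Wnt4 7.10 against 3.55 CPM. Neither rise was alike in the sets, with ratios of 0.98 and −0.22 for Wnt3 in 600s_182s and 613s, and 0.11 and 3.63 for Wnt4. Other such ligands were lower in COP wells, among them Wnt10a at 1.47 against 3.26 CPM. Lower were also 7 of 12 receptors, with Lgr5 (−4.21), Fzd4 (−3.60), Ptk7 (−2.63) and Fzd1 (−2.03), and 4 of 5 inhibitors. Not all of these inhibitors held: Apcdd1 (−1.68) was at 3.13 in set 613s, and Dkk3 turned to 0.18 without set 600s_182s. The other 5 receptors were not called, Fzd3 (0.68) and Ryk (0.42) among them. Tcf7l2, the TCF/LEF factor gene of this stage, had 581 CPM in COP against 72.2 CPM in OPC wells (2.99, with 3.03 and 3.19 in 600s_182s and 613s), and 61 of 71 COP wells held at least 100 CPM. Tcf7l1, a further factor of the family, was higher at 3.30 and Wls, the carrier of Wnt proteins, at 1.79 (384 against 110 CPM). Of the targets, Axin2 was the 1 called higher of 8 eligible, and 3 were lower, with Ccnd1 at −5.16 (29.5 against 1088 CPM) and Myc at −2.05, which was 1.73 in set 613s. Bcl9, a co-activator of beta-catenin, was lower at −3.39, and Ctnnb1 (−0.56) and Lrp6 (−0.70) were not called, with −1.22 and −4.16 in 613s. Reck (4.75 against 9.59 CPM) and Adgra2 (0.956 against 8.23 CPM) were below the minimum level.

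In mature oligodendrocyte against COP wells, Wnt3 was the ligand called higher, at 113 against 9.53 CPM (3.43, with 3.72 and 5.99 in 600s_182s and 613s). It was found in 43.5% of thinned mature oligodendrocyte wells and was the only Wnt gene above 10 CPM in that class, where Ndp had 11.3 CPM. The formin genes Daam2 (3.65) and Daam1 (3.06), Fzd7 (3.42), Bcl9 (3.12), the feedback inhibitor gene Nkd1 (2.53) and Shisa3 (2.28) were also higher. Fzd7 was just above the minimum at 10.9 CPM, and below it in single-lineage wells (3.24 CPM) and in set 600s_182s (4.22 CPM). By list, 2 of 9 eligible receptors were higher and 5 lower (median −1.12, against −0.17 over all genes), and 1 of 8 targets was higher and 3 were lower (−0.41). Of all eligible genes 15.7% were higher and 18.8% lower. Lower were Nkd2 (−3.13), Tcf7l2 (−2.27, 120 CPM in mature oligodendrocyte wells) and Tnfrsf19 (−1.79). The call of Nkd2 rested on COP wells of set 613s (76.5 CPM), since those of 600s_182s had 2.60 CPM. Only 2 COP wells held at least 100 CPM of Nkd2. Wls (−0.76), Ctnnb1 (−0.31) and Lrp6 (−0.44) were not called, though Wls was at −1.17 and Lrp6 at 3.60 in 613s and Ctnnb1 at −1.13 in 600s_182s, and Reck (7.42 CPM), Adgra2 (3.33) and Fzd4 (2.37) were below the minimum level.

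**Figure D5:**
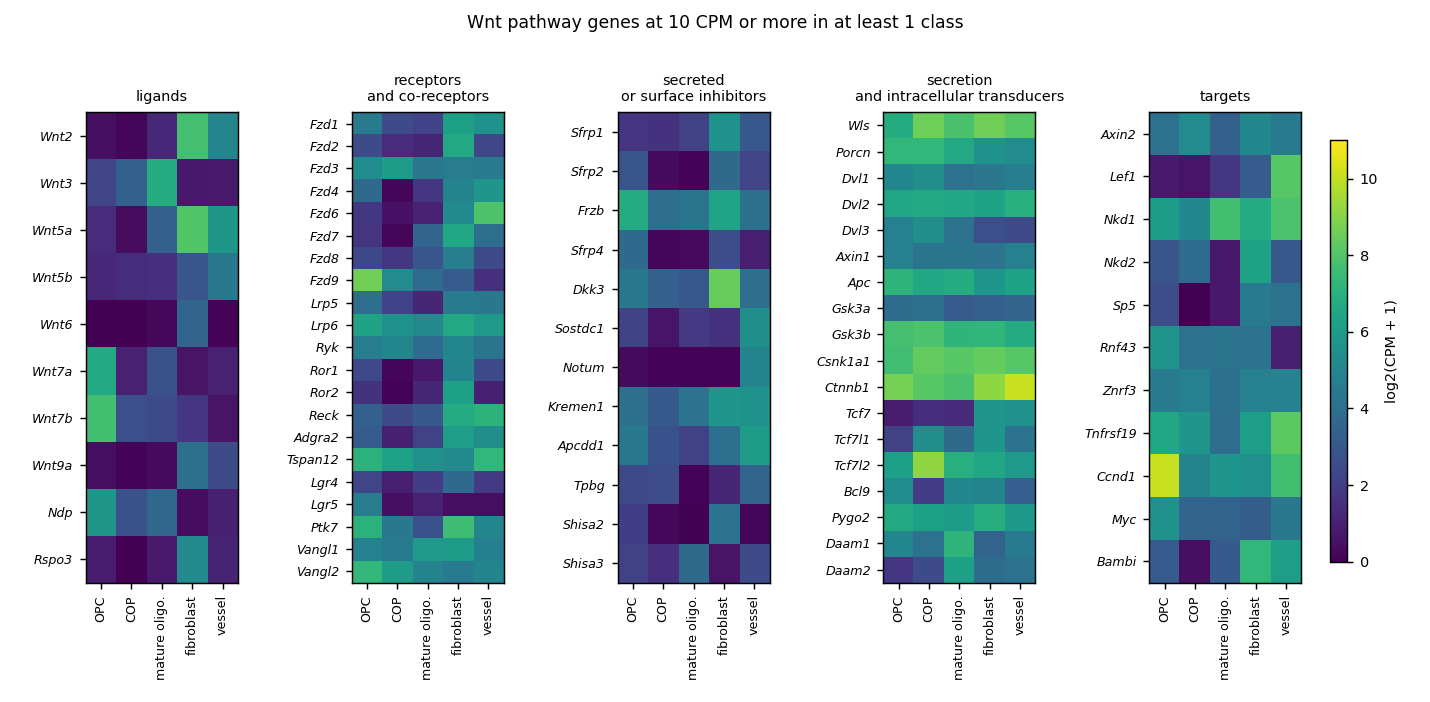
Level, as log2(CPM + 1) on the colour scale, of the pathway genes with at least 10 CPM in 1 or more of the 5 classes (columns), by list. Wnt2 and Wnt5a are brightest among ligands in fibroblast wells, Wnt7a and Wnt7b in OPC wells, and Wnt3 in mature oligodendrocyte wells.

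Across the 814 wells of the 5 classes, the genes most alike to each member were found by Pearson's r of log2(CPM + 1) among 11263 other genes, and are named where r reached 0.5. The wells share sets, depth and class, so this describes the classes as much as the genes. For Wnt2 these were Tcf21 (0.58), Moxd1 (0.56) and Coch (0.54). For Wnt5a they included Cped1 (0.63) and Col1a2 (0.62), a marker used to assign fibroblast wells. For Wnt7b they were Cspg4 (0.55), an OPC marker used in the assignment, Emid1 (0.55) and Cacng4 (0.53). For Fzd9 they were Lhfpl3 (0.64), also such a marker, Kcnip3 (0.64) and RP24-324L19.4 (0.64). For Lef1 they were Abcb1a (0.69), Tek (0.68), an endothelial marker used in the assignment, and Slco1a4 (0.67). No gene reached 0.5 for Wnt7a, Axin2, Frzb, Sfrp4 or Dkk3.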

How the data were processed

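The deposited table holds raw counts of reads per gene, whole numbers not normalized, per the values and the deposited header. Reads were aligned and counted with tools among which the submitters' processing notes list Subread 1.4.6-p5 with its featureCounts, SAMtools 0.1.18 and TopHat2 2.1.1, for the builds GRCm38 and mm10. No source used here gives the annotation, the strand setting or how multi-gene reads were counted, so reads of antisense partners cannot be told apart. Libraries carry no molecular identifiers, so every interval covers counting error only. Counts were summed per class and scaled to CPM. Shares were compared after thinning each well to 50000 reads. No doublet caller was run on sorted wells, and mixed wells were kept. Gene positions and lengths come from GENCODE vM21. Named genes were the 10 members, up to 10 called pathway genes with the largest ratios in each comparison, and Reck, Adgra2, Fzd4, Lrp6, Wls, Tcf7l2 and Ctnnb1. Members, markers and lists were chosen with earlier results of these data known. Alternatives were 20 and 500 CPM in the class rule, mixed wells left out, 100000 reads, the mean of wells, TMM (edgeR 4.0.16) and median-of-ratios (DESeq2 1.42.0) scaling, totals without mitochondrial genes, no minimum CPM, a constant of 5 CPM and each set left out or alone. The calling code was tested on simulated data. Up to 3 genes most alike to each member were named, and 1 of them is not reported here.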

Additional observations from a re-analysis of the deposited data

Results flagged for a closer look

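The 295 wells with under 50000 reads entered no comparison, yet they held reads of all 10 genes above the 0.404 CPM that a count of 3 in their 7429132 reads allows. Summed over these wells, the levels were 17.2 CPM for Wnt2, 33.2 CPM for Wnt5a, 6.73 CPM for Wnt7a, 9.42 CPM for Wnt7b and 29.5 CPM for Fzd9. Axin2 stood at 18.7 CPM, Frzb at 9.56 CPM, Dkk3 at 19.7 CPM and Lef1 at 44.0 CPM. Sfrp4 had 5 reads, a level of 0.673 CPM. Reads of Fzd9 were in 75 of the 295 wells and reads of Wnt5a and Dkk3 in 70 each. These wells were not assigned to classes. The minimum lies in a stretch with many wells: 50 had 40000 to 49999 reads and 36 had 50000 to 59999.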

How the results depend on the processing

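Of 620 ratios of the members recomputed under the alternatives, 560 kept their side of the rule, 32 became calls, 21 lost the call and 7 changed direction with a call on one side or both. Of the 560, 27 had the opposite sign and no call under either setting, among them Frzb in fibroblast against OPC and Axin2 in vessel against fibroblast wells. Of 22 called ratios 14 held in every setting that gave a value, among them those of Wnt2, Wnt5a, Wnt7a, Wnt7b, Fzd9 and Dkk3 between fibroblast and OPC wells and of Lef1 between vessel and fibroblast wells (4.06 to 8.16). A called direction changed for Dkk3 in COP against OPC wells without set 600s_182s (0.18), for Frzb in mature oligodendrocyte against COP wells without set 613s (−1.46) and in set 600s_182s alone (−2.20), for Frzb in vessel against fibroblast wells without set 1025s_182s (0.90) and in set 613s alone (0.80), for Sfrp4 in fibroblast against OPC wells in set 600s_182s alone (1.19), and for Axin2 there in set 613s alone (−0.14). The cause was not tested.

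Members called in mature oligodendrocyte against COP wells were 2, but 4 with the mean of wells, 6 with no minimum CPM, 4 without set 600s_182s and 5 in set 613s alone. In vessel against fibroblast wells they were 5, but 8 with no minimum. Over all genes, no minimum gave 7811 calls instead of 5079 in vessel against fibroblast, 6064 instead of 3843 in COP against OPC and 6182 instead of 3729 in mature oligodendrocyte against COP wells, because more low genes are tested. The last 2 comparisons had 6428 and 5939 calls without set 600s_182s and 6651 and 6191 in set 613s alone, with 11 and 10 COP wells left. Set 1025s_182s alone gave no value for COP wells. Without thinning, 42 of 50 shares of wells with a read moved beyond their intervals, so unthinned shares cannot be compared across depths. No paired analysis was possible because all wells are 1 sample without replicate numbers.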
